A study of Homo sapiens with 2 samples.

Results

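Genes of ribosome biogenesis and RNA polymerase I were examined in ChIP-seq of the chromatin protein DEK. The cells were 786-O, a human cell line from a renal cell carcinoma. The 40 genes were taken by name, and all 40 were found in the RefSeq annotation of GRCh38.p14 among 19970 protein-coding genes of chromosomes 1 to 22 and X. By role they were 13 assembly factors of the small ribosomal subunit, 10 assembly factors of the large subunit, 7 proteins of small nucleolar ribonucleoproteins (snoRNPs), 2 nucleolar RNA-binding proteins and 8 genes of the polymerase I machinery. The series holds 1 group of 2 libraries, labelled as negative control with a WT genotype and DEK as the antibody, and the sample descriptions carry the name Cas9. The labels do not say what the control stands for. Here both libraries were read as DEK precipitations from control cells, 2 replicates of 1 line. Nothing in the labels makes them separate cultures, so their spread may be technical. With 1 group there is no contrast between conditions, and expression was not measured, so the identity of the cells was not checked against marker genes.

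Ribosomes are built in the nucleolus. RNA polymerase I transcribes the long precursor of the ribosomal RNAs, snoRNPs modify and help to fold it, and assembly factors cut it and load ribosomal proteins to form the small and large subunits. Many of these genes are highly used in growing cells and are known targets of the transcription factor MYC.

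A gene was counted when a shared region, that is overlapping peaks of both replicates, touched its annotated span extended by 1 kb on each side. Replicate 1 had 19015 peaks and replicate 2 had 24457 on the chromosomes analysed, and these formed 12590 shared regions. The position given as the summit of a shared region is the midpoint between the summits of its strongest peak in each library. Fold enrichment, the authors' linear ratio of the signal at the summit over local background, had a median of 4.11 and 4.10 over the shared regions in replicates 1 and 2. The pileup, meaning how many fragments lie over the summit, had a median of 21 and 22, so single regions rest on few fragments. In each list only 5% of peaks had a fold enrichment under 2.94 and 2.85, and the lowest values were 1.67 and 1.69. Weaker enrichment may have been missed, and the limit of detection was not tested.

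Of the 32 genes with an annotated start in the RefSeq promoter table, 4 had a shared region over the window from 250 bases before to 50 bases after that start. These were IMP4, POLR1A, RRP9 and NOP16, and all 4 share the stretch with a gene that runs the other way. The bases before their starts are shown because these are the sequences under the regions described below. They read 5′ to 3′ toward the member gene, on GRCh38.p14 from RefSeq, and stop where the neighbouring gene begins. Capitals mark matches to any of 7 promoter words on either strand: the E-box CACGTG, the ETS word CCGGAAG, the CCAAT box, the GC box GGGCGG, the YY1 word AAGATGG, the TATA word TATAAA and the NRF1 palindrome.
IMP4, chr2:130342682-130342896, plus strand: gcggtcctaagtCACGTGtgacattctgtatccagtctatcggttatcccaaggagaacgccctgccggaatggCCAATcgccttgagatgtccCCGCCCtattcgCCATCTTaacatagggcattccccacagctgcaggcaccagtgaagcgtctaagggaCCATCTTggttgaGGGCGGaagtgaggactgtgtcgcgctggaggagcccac
POLR1A, chr2:86105887-86106136, minus strand: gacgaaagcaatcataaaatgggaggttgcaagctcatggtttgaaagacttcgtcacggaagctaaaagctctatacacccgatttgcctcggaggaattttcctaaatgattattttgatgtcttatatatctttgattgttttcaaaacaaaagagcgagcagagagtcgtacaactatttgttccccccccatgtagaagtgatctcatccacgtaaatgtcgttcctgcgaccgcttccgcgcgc
RRP9, chr3:51941905-51942154, minus strand: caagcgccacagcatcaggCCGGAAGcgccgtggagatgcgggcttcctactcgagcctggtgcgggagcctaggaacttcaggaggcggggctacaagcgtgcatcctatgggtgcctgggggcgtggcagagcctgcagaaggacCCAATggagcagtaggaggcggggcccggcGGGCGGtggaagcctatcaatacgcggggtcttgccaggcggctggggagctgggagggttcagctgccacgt
NOP16, chr5:176388599-176388750, minus strand: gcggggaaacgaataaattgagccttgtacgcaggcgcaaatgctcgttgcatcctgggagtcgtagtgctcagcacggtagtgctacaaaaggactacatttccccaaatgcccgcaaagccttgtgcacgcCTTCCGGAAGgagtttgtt
The IMP4 stretch held the E-box, to which MYC binds, a CCAAT box, the GC box on both strands and the YY1 word at 2 places on the other strand. The RRP9 stretch held the ETS word, a CCAAT box and a GC box. In the NOP16 stretch the only matches were to the ETS word on both strands, where the matches overlap each other. Its whole start window also held a GC box, outside the bases printed. The POLR1A stretch held none of these words, and its whole start window had a GC content of 44.7%, against 56% for IMP4, 57.3% for NOP16 and 67% for RRP9. A match is a description of letters and does not show that a factor was bound.

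A shared DEK region lay in the span plus 1 kb of 12 of the 40 genes (30%, 95% Wilson interval 18.1 to 45.4), beside 24.4% of the other 19930 protein-coding genes. The second share lies inside the interval of the first. Within 1 kb of an annotated gene end the count was 9 of 40 (22.5%, 12.3 to 37.5), beside 7.50% of the other genes. The genes with a region were IMP3, IMP4, RRP9, RRP12, NOP14 and WDR43 of the small subunit, BOP1, NOP16 and RRP1B of the large subunit, NOLC1 among the snoRNP proteins, and POLR1A and TCOF1 of the polymerase I genes. In WDR43, RRP1B and TCOF1 the region lay inside the gene only. No set test was run on these counts, because the genes were chosen with results of these libraries known. At the gene ends the count fell under stricter rules for the peaks. It was 3 of 40 (7.5%) under 2 rules, with the other genes at 5.69% when the peaks of the replicates had to overlap reciprocally by 50%, and at 2.81% when −log10 q had to be at least 5. With the 5000 peaks of lowest p in each library it was 2 of 40 (5%) beside 1.60%. When both libraries had to reach 5-fold it was 0 of 40 beside 0.607%. With so low a share among other genes, a count of 0 in 40 cannot show a reversed difference.

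**Figure D1:**
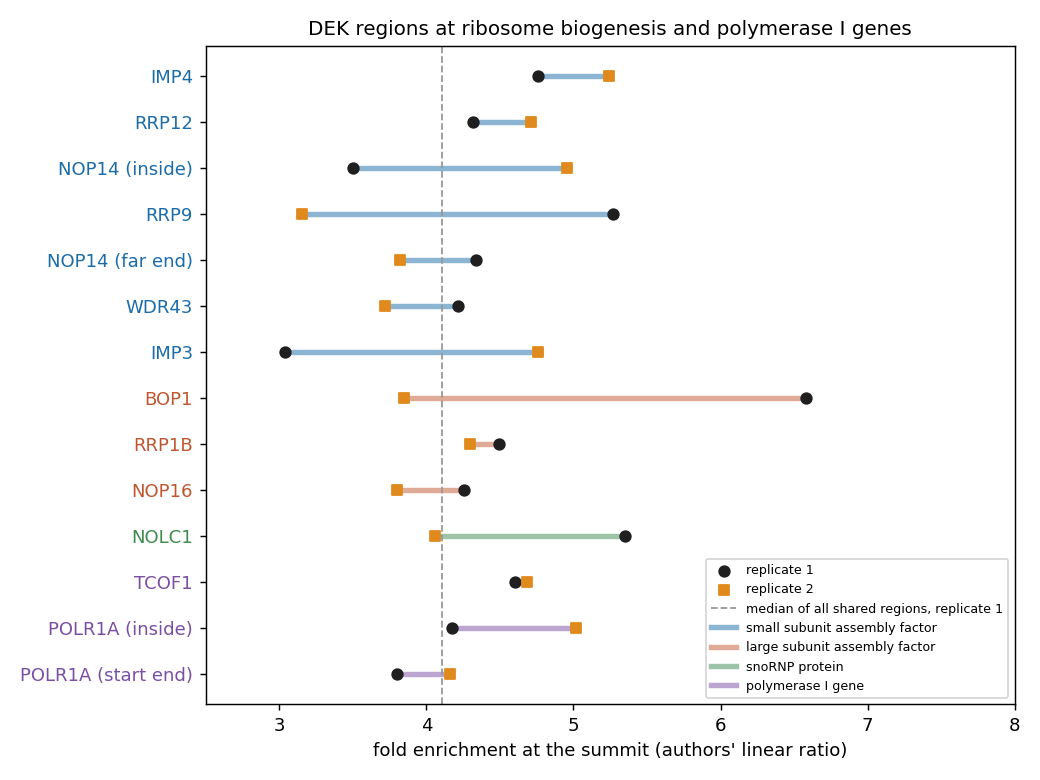
Fold enrichment at the summit (x axis, linear ratio) of the 14 shared regions at 12 genes, with replicate 1 as circles, replicate 2 as squares and a bar joining them, coloured by role. The dashed line is the median of all shared regions in replicate 1, 4.11, and the replicates lie far apart at BOP1, RRP9, IMP3 and NOP14 inside the gene.

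The small subunit assembly factors had a region in 6 of 13 genes (95% Wilson interval 23.2 to 70.9%), beside 24.4% of other genes, which lies inside that interval. At a gene end it was 5 of 13 (17.7 to 64.5%), beside 7.50%. Among 41 other small subunit factors of the wider list described below, the shares were 26.8% by span and 14.6% at an end. IMP4, a protein that binds the U3 snoRNP in the early small subunit precursor, had a region whose percentile in fold enrichment, averaged over both libraries, was 85.5. No other region of the 14 had a higher one, although the mean fold itself was higher at BOP1. Its region at chromosome 2, 130342542 to 130342932, had a fold enrichment of 4.76 in replicate 1 and 5.24 in replicate 2 (mean 5.00 ± 0.343, SD, n = 2). Its pileups of 24 (95% exact Poisson interval 15.4 to 35.7) and 28 (18.6 to 40.5) agree within counting error. The summit lay 122 bp upstream of the start, in the stretch printed above with its E-box, and the neighbour VMA22 has its end at the same region. A second peak 618 bp upstream, with 3.09-fold enrichment, was called in replicate 2 alone.

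RRP9, a protein specific to the U3 snoRNP, had a region over its start at chromosome 3, 51941865 to 51942417. The fold enrichment was 5.27 in replicate 1 and 3.16 in replicate 2 (mean 4.21 ± 1.50, SD, n = 2), so the library values differed 1.67-fold. This ratio is above the 95th percentile of 1.43 over all shared regions. The pileup was only 16 fragments (9.15 to 26.0) and 9 fragments (4.12 to 17.1), whose exact Poisson intervals overlap. The summit lay 120 bp upstream of the start, and PARP3, which encodes a poly(ADP-ribose) polymerase, begins at the same region.

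IMP3, the partner of IMP4 on the U3 RNA, has the shortest span of the 40 genes, 1.13 kb. Its shared region lay beyond the far end of the gene at chromosome 15, 75638303 to 75638780, 313 bp outside the span. The fold enrichment there was 3.04 in replicate 1 and 4.76 in replicate 2, and it stood at the 7.19th and 82.1st percentile of its list. At the start of IMP3 a peak of 3.60-fold was called 235 bp upstream in replicate 2 only.

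RRP12, a factor for export and maturation of the subunits, had a region at its end of higher coordinate on chromosome 10, 97401225 to 97401569. Its fold enrichment was 4.32 and 4.71 in replicates 1 and 2 (mean 4.52 ± 0.280, SD, n = 2), a close match. The strand of RRP12 was not used here, so the region is given by coordinate.

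NOP14, a component of the small subunit processome, had 2 shared regions. The first lay 229 bp beyond its far end on chromosome 4, 2936819 to 2937707, with fold enrichments of 4.34 and 3.82. The second lay inside the gene with its summit 1230 bp from the start, at 2961677 to 2962397, with 3.50 and 4.96. This second region fell just outside the 1 kb limit around the start, with a gap of 1009 bp. The first region had the highest pileups of all 14, 50 and 51 fragments, at the 97.9th and 97.3rd percentile of shared regions. Its background was high as well, 10.8 and 12.6 fragments against medians of 4.20 and 4.52, and its fold enrichment was therefore near the median of the lists. Copy number was not tested.

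WDR43, which helps to couple polymerase I transcription to processing, had a region only inside the gene. It lay 9779 bp past the start on chromosome 2, 28904281 to 28904601, with fold enrichments of 4.22 and 3.72. UTP4, part of the complex that joins the precursor during transcription, had peaks in replicate 2 alone, of 2.83-fold 735 bp past the start and 3.28-fold 12.3 kb past it. The remaining 6, UTP15, UTP20, NOB1, BYSL, LTV1 and TSR1, had no peak in either library. Among them NOB1 is the nuclease that makes the final cut of the small subunit RNA, and UTP20 has the longest span of the 40 genes, 107 kb.

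**Figure D2:**
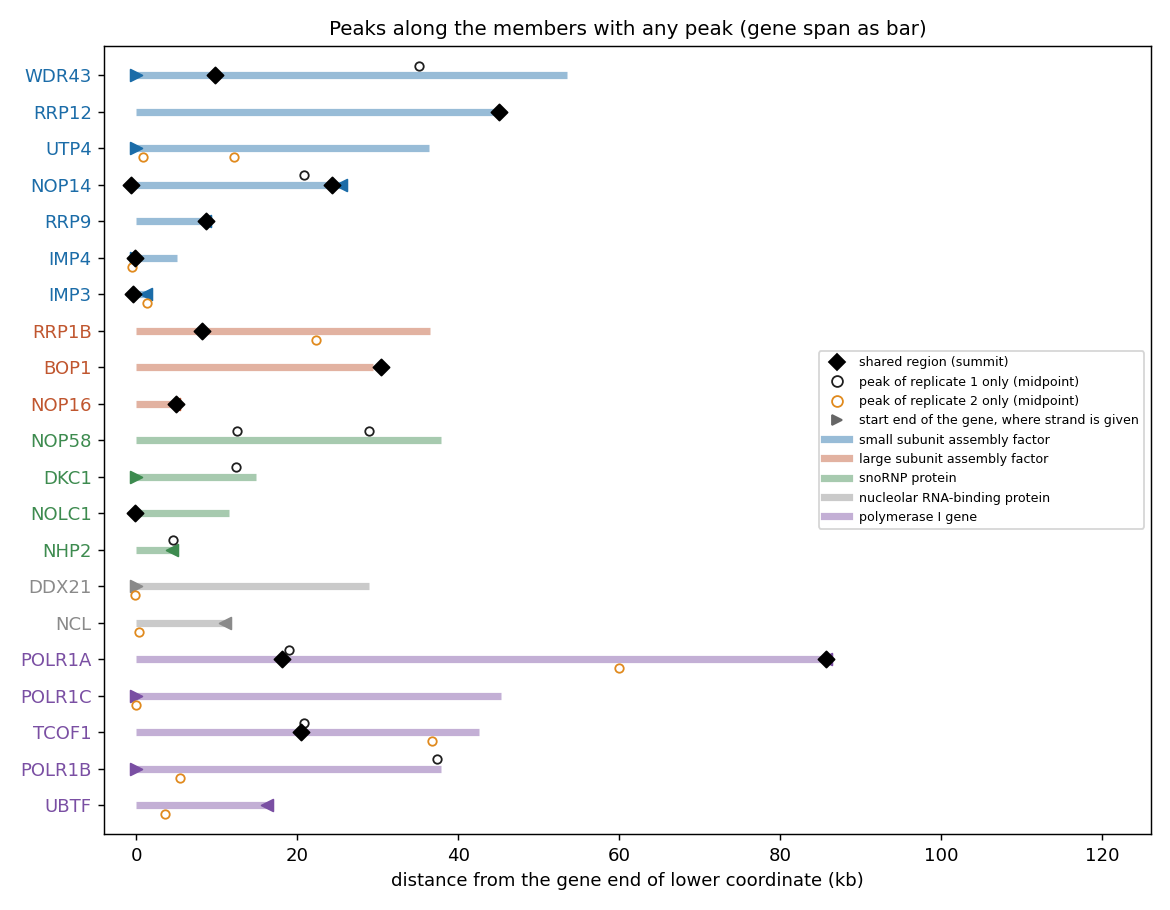
Positions of peaks along the 21 genes with any peak, as distance in kb from the gene end of lower coordinate (x axis), with the gene span as a bar coloured by role. Diamonds are summits of shared regions, open circles are peaks of 1 replicate alone, and triangles mark the start end; most diamonds sit at a bar's end, while WDR43, RRP1B and TCOF1 have theirs inside, and NOP14 and POLR1A have 1 at an end and 1 inside.

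Large subunit assembly factors had a region in 3 of 10 genes and at a gene end in 2 of 10, with other genes at 24.4% and 7.50%. BOP1, PES1 and WDR12 form the PeBoW complex, which is needed to process the RNA of the large subunit, and of these BOP1 alone had a region. It lay on chromosome 8, 144292221 to 144292745, 783 bp beyond the end of higher coordinate of BOP1. The same region also lay within 1 kb of an end of HSF1, with its summit inside that gene of the master regulator of the heat shock response. Its fold enrichment was 6.58 in replicate 1, the highest single value of the 14 regions, and 3.85 in replicate 2 (mean 5.22 ± 1.94, SD, n = 2). The pileups of 20 (12.2 to 30.9) and 12 (6.20 to 21.0) overlap in their exact Poisson intervals, and the backgrounds were low, 2.19 and 2.38 fragments. BOP1 is the called gene whose region lies closest to the 1 kb limit on the inside, and with the summit in place of the region's edge it was no longer called. That summit lay 1002 bp beyond the end, as the midpoint of library summits 274 bp apart.

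NOP16, a late nucleolar factor of the large subunit, had a region over its start on chromosome 5, 176388535 to 176389249. The fold enrichment was 4.25 and 3.80 (mean 4.03 ± 0.319, SD, n = 2). It joined 2 peaks of replicate 1 to 1 peak of replicate 2, and the strongest summits of the libraries lay 492 bp apart. HIGD2A, a mitochondrial respiratory complex factor that starts next to NOP16, holds the midpoint of these 2 summits within its span. RRP1B, which binds the regulatory phosphatase PP1 in the nucleolus, had a region inside the gene on chromosome 21, 43667475 to 43667813, of 4.49 and 4.30-fold. The other 7 genes had no peak in either library: PES1, WDR12, the RNA methyltransferase gene NOP2, NIP7, the GTPase genes GNL2 and GNL3, and RRS1.

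Among the 7 snoRNP proteins NOLC1, a chaperone of snoRNPs, was the only gene with a shared region. This is 14.3% (95% Wilson interval 2.57 to 51.3), and the 24.4% of other genes lies inside that interval. The NOLC1 region lay at the end of lower coordinate on chromosome 10, 102151450 to 102152387, with the edge 2 bp outside the span. The fold enrichment was 5.35 in replicate 1 and 4.06 in replicate 2 (mean 4.70 ± 0.909, SD, n = 2), on pileups of 27 (17.8 to 39.3) and 21 (13.0 to 32.1) that overlap in their exact Poisson intervals. At 938 bp it was the widest of the 14 regions, whose median width was 505 bp beside 427 bp for all shared regions. The core proteins had no shared region. FBL, the methyltransferase of the box C/D class, its partner NOP56, and GAR1 of the H/ACA class had no peak at all. NOP58, the other box C/D core protein, had peaks of 3.36 and 3.83-fold inside the gene in replicate 1 only. DKC1, the pseudouridine synthase of the H/ACA class, had a peak of 4.29-fold in replicate 1 only, 12.4 kb past its start. NHP2, also of the H/ACA class, had one of 3.58-fold 203 bp upstream of its start, again in replicate 1 only.

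Neither of the nucleolar RNA-binding proteins had a shared region. NCL, which encodes nucleolin, had a peak of 3.11-fold near its far end in replicate 2 alone, and a shared region 1259 bp outside its span made it the uncalled gene closest to the limit. DDX21, an RNA helicase that links polymerase I and II transcription, had a peak of 2.88-fold 278 bp upstream of its start in replicate 2 alone.

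Polymerase I genes had a region in 2 of 8 (25%) and at a gene end in 1 of 8, where other protein-coding genes had 24.4% and 7.50%. POLR1A, the catalytic subunit, had 2 regions on chromosome 2. The region over its start, 86105684 to 86106168, had fold enrichments of 3.80 and 4.16 (mean 3.98 ± 0.254, SD, n = 2). PTCD3, a gene of mitochondrial translation, begins there too. The midpoint of the summits lay 1 bp from the start of POLR1A, but the summits of the 2 libraries lay 246 bp apart. The region 67.5 kb into the gene, 86038216 to 86038878, was at least as enriched, with 4.17 and 5.02 (mean 4.59 ± 0.597, SD, n = 2). TCOF1 encodes treacle, a nucleolar protein that recruits polymerase I factors. Its region inside the gene on chromosome 5, 150377923 to 150378276, had 4.61 and 4.68-fold (mean 4.64 ± 0.0556, SD, n = 2). This was the closest match in fold between the libraries of all 14, while the library summits lay 112 bp apart. Further peaks in TCOF1, of 4.58-fold in replicate 1 and 4.02-fold in replicate 2, overlapped no peak of the other library.

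The other polymerase I genes had no shared region. POLR1B, the second largest subunit, had peaks in both libraries that did not overlap, of 3.93-fold at the far end in replicate 1 and 3.92-fold 5015 bp past the start in replicate 2. POLR1C, a subunit shared with polymerase III, had a peak of 3.39-fold in replicate 2 alone, 49 bp upstream of the start. UBTF, which organises the active ribosomal RNA genes, had a peak of 3.12-fold in replicate 2 alone, inside the gene. POLR1D, POLR1E and RRN3, the factor that brings polymerase I to its promoter, had no peak.

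In all, 19 of the 40 genes had no peak, 3 had peaks in replicate 1 only, 5 in replicate 2 only, and 1 had peaks in both that did not overlap. The shares of other genes in these 4 states were not counted, so the counts only describe the 40 genes. Peaks of both libraries, overlapping or not, lay in the span plus 1 kb of 13 genes (32.5%), beside 27.1% of other genes. Any peak of replicate 1 was found in 16 genes, beside 32.7% of other genes, and any peak of replicate 2 in 18, beside 37.9%. With a peak of either library counted, 15 of the 40 had one within 1 kb of an end, beside 17.0% of other genes. The 9 unmatched peaks of replicate 1 had a median of 3.60-fold and the 12 of replicate 2 a median of 3.34-fold, below the medians of 4.33 and 4.23 of the 14 shared regions. For the 28 genes without a shared region, the nearest one lay a median of 74.1 kb from the span, beside 77.2 kb for other uncalled genes.

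The 14 regions were of ordinary strength for shared DEK regions. In replicate 1 their fold enrichment ran from 3.04 to 6.58, and in replicate 2 from 3.16 to 5.24. Taking the highest-ranked region of each gene, the median over the 12 genes of the mean percentile of fold enrichment was 71.3, beside 64.2 for other genes with a region. Fold enrichment was higher in replicate 1 at 7 regions and in replicate 2 at 7, with a median ratio of 1.13 beside 1.13 over all shared regions. In all 14 the exact Poisson intervals of the pileups overlapped between the libraries. None of the 12 genes stayed called when both libraries had to reach 5-fold, a level held by 2.55% of other genes.

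**Figure D3:**
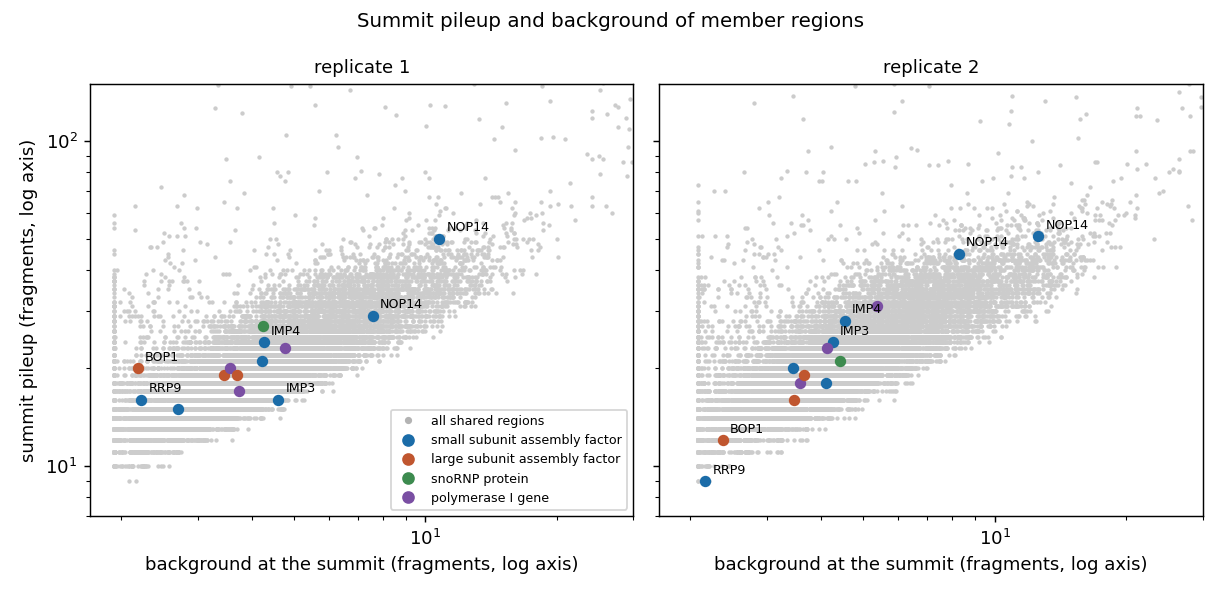
Summit pileup (y axis) against background (x axis), both in fragments on log axes, for all shared regions in grey and the 14 regions in colour by role, in replicate 1 (left) and replicate 2 (right); a few grey regions lie beyond the axes. NOP14 stands at high background with pileups up to 50 and 51, while RRP9 and BOP1 sit at the low end of the background.

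The background differed between the regions. RRP9 had 2.22 and 2.17 fragments and BOP1 2.19 and 2.38, close to the lowest values of any shared region, 1.93 and 2.09. The other regions lay between 2.71 and 10.8 fragments in replicate 1 and between 3.46 and 12.6 in replicate 2. At a low background, few fragments give a high ratio, as at BOP1 in replicate 1, where 20 fragments gave 6.58-fold and 50 at NOP14 gave 4.34-fold. The part of the background in the differences between genes was not tested.

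Gene length is one property that the choice of genes did not use. The 40 genes had a median span of 19.1 kb beside 24.2 kb for other genes. Among spans under 10 kb, 4 of 10 genes had a region, all at an end (IMP3, IMP4, RRP9 and NOP16), beside 10.3% of other genes of that length for the span plus 1 kb and 8.41% for the ends. Among spans of 10 to 30 kb the count was 3 of 16 by both measures (NOLC1, NOP14 and BOP1), beside 19.7% and 9.12%. Among spans of 30 kb or more it was 5 of 14 for the whole span beside 36.3%, and 2 of 14 at an end (RRP12 and POLR1A) beside 5.91%.

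**Figure D4:**
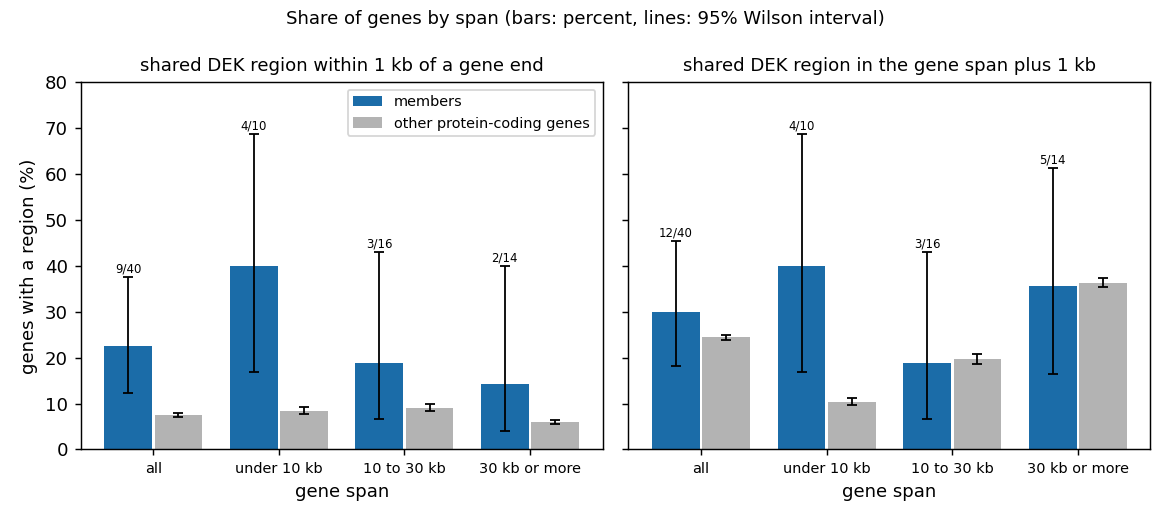
Percent of genes with a shared DEK region (y axis) within 1 kb of a gene end (left) and in the span plus 1 kb (right), for all genes and 3 classes of span; blue bars are the 40 genes with counts above them, grey bars are other protein-coding genes, and lines are 95% Wilson intervals. In the longest class the counts for the whole span are 5 of 14 beside 36.3%, and in the shortest class they are 4 of 10 beside 10.3%.

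The arrangement of starts was another such property. It could not be read for genes without an annotated start, among them RRP12, NOLC1 and BOP1, which had a region at an end. Of the 32 genes with an annotated start, 13 had a start of another protein-coding gene on the opposite strand within 1 kb upstream. Among other protein-coding genes with an annotated start, 1933 of 15779 had such a neighbour, so the 40 genes had more of them. A shared region within 1 kb of the start was found in 4 of these 13, the printed IMP4, POLR1A, RRP9 and NOP16, beside 12.9% of other genes with such a neighbour. It was found in 0 of the 19 genes without one (95% Wilson interval up to 16.8%), beside 5.73% of other genes without one, and together in 4 of 32 beside 6.60%. At such starts a region cannot be assigned to 1 of the 2 genes. When each region was counted for its nearest gene alone, IMP4, NOP16 and BOP1 lost theirs, 9 of 40 genes had a region in the span plus 1 kb beside 22.5% of others, and 6 of 40 had one at an end (15%) beside 6.17%.

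The start windows themselves held the promoter words as follows. CACGTG was in 15 of the 40 windows of 32 genes (37.5%, 95% Wilson interval 24.2 to 53.0), beside 8.29% of 22091 windows of other protein-coding genes. It was in 2 of the 4 windows with a shared region, IMP4 and RRP9, and in 13 of the 36 without one. Over all protein-coding genes CACGTG was in 8.96% of 804 windows with a shared region and 8.32% of 21327 without one. In RRP9 the match runs across the start, so the printed stretch ends within it. CCGGAAG was in 14 of 40 beside 12.8%, and CCAAT in 17 of 40 beside 34.6%. GGGCGG was in 29 of 40 beside 56.3%, AAGATGG in 4 beside 6.04%, TATAAA in 2 beside 9.47% and the NRF1 palindrome in 2 beside 1.50%. Some genes have 2 windows that can overlap, so the windows are not independent. The median GC content was 56.7% in the 4 windows with a region and 64.7% in the 36 without, beside 59.3% and 62.7% over all protein-coding genes.

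Several of the 40 genes carry snoRNA genes in their introns or span, from which the guide RNAs of the snoRNPs are made. The annotation placed 25 snoRNA genes inside 8 of them: UTP20, TSR1, WDR43, NOP58, NCL, NOP56, GNL3 and DKC1. Only WDR43 of these 8 had a shared region, beside 40.2% of 518 other genes that hold a snoRNA gene. With 8 genes this count is too small to show a difference, and gene length was not matched. No region of the 14 lay over a snoRNA gene, and the nearest lay 9.06 kb away.

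A wider list of 136 other genes of the same pathway had a shared region in 35 (25.7%, 95% Wilson interval 19.1 to 33.7) and at an end in 17 (12.5%, 7.95 to 19.1), beside 24.4% and 7.50% of genes outside the 40. Small subunit factors had 11 of 41, led by NOL6 (5.16 and 5.05-fold in replicates 1 and 2) and the helicase gene DDX49 (4.68 and 5.09-fold), both at an end. Large subunit factors had 15 of 50, led by PELP1 (6.76 and 5.98-fold) and RSL1D1 (4.62 and 5.24-fold), both inside the gene. The snoRNP assembly genes had 3 of 13, led by PIH1D1 at an end (5.35-fold in both) and RUVBL1 inside the gene (4.39 and 4.41-fold). Polymerase I subunits and selectivity factors had 1 of 15, POLR2F, a subunit shared by the polymerases (4.08 and 5.18-fold). Exosome and trimming genes, whose products shorten the precursor, had 5 of 17, led by ERI1 (4.22 and 5.57-fold) and EXOSC2 (3.96 and 3.89-fold), both inside the gene.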

How the data were processed

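DEK ChIP-seq peak lists of 2 replicates were analysed. Per the submitters' processing notes the build was GRCh38 and the tools included MACS2 2.2.7.1, deepTools 3.5.1, Bowtie2 2.2.5, cutadapt 1.18, ChIPseeker 1.32.1 and DiffBind 3.6.5, with no roles given. The sources used here do not state whether a control library was used. The authors deposited 1 list per library, with the fold enrichment as a linear ratio, −log10 p and −log10 q values, a score (10 times −log10 q without its decimals in 100% and 99.95% of peaks), and a summit offset. Column meanings follow the narrowPeak layout.

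Peaks of both lists with 1 bp or more in common formed a shared region, and the strongest peak per library gave the region's values. Pileup and background were solved from fold enrichment and p (Poisson, relative tolerance 5e-05, met in 99.99% of regions, on the assumption that fold is pileup plus 1 over background plus 1). The solver recovered 100% of pileups in data simulated under that same assumption. The simulation checks the solver only, not whether the authors' values follow the assumption. Genes, strands and start windows came from RefSeq tables of GRCh38.p14, where RRP12, BOP1, RRS1, RRP1B, NOP58, NOLC1, POLR1E and TCOF1 had no start window. Shares have 95% Wilson intervals and pileups exact Poisson intervals, both covering counting error only. Python 3.11.15 with scipy 1.17.1 was used.

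The genes and lists were chosen with earlier results of these data known, the promoter words after the peaks had been seen, and no set test was run. Every gene of the 40 is named, with the 2 highest-ranked of each role in the wider list. Alternatives changed the window, peak threshold, overlap rule, replicate, assignment and background.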

Additional observations from a re-analysis of the deposited data

How the results depend on the processing

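The excess of the 40 genes over other genes was 5.60 percentage points for the span plus 1 kb and 15.0 at the gene ends. It stayed positive at the ends under every alternative that left a gene called at an end, and for the span it changed sign under 4. Requiring −log10 q of at least 5 left 6 genes by span and 3 at an end, with a difference at the ends of 4.69 points. Requiring 5-fold left 0 and 0, with differences of -2.55 and -0.607 points. The 5000 peaks of lowest p left 2 and 2 (IMP4 and NOP14), with -1.56 and 3.40 points. Reciprocal overlap of 50% left 6 and 3, with -4.89 and 1.81 points, and counting the nearest gene alone gave -0.0339 points for the span. Without 1 replicate the counts were 16 to 18 by span and 11 to 13 at an end. The median percentile fell from 71.3 to between 49.3 and 64.7. Peaks of 1 library alone counted in these settings, and the reason for the fall was not tested. With no extension of the span 9 genes (22.5%) had a region, and the excess over others shrank to 0.528 points. With 3 kb windows 13 and 10 genes were called, and at the ends 25% stood beside 13.7% of others, an excess of 11.3 points. Counts for summits within 100 bp (9 and 6), summits in the window (11 and 8) and peaks of each library whether overlapping or not (13 and 9) stayed within 1.5 times the counts of 12 and 9. Restricting the others to the range of spans of the 40 genes gave 9.16 and 14.4 points. Few fragments per region limit all values. No paired analysis was possible because there is 1 group.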

Other observations

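Over all protein-coding genes, the start windows under shared DEK regions differed from the others most in 1 word. CCAAT, the letters of the CCAAT box to which NF-Y binds, was in 533 of 804 windows with a shared region (66.3%, 95% Wilson interval 63.0 to 69.5) and in 33.4% of 21327 windows without one. Of all 512 words of 5 letters, each counted with its reverse complement, it ranked 1 both by the difference of 32.9 percentage points and by the ratio of 1.98. The overlapping word CAATC ranked 2 by both, with 54.9% beside 28.5%. The same letters in reverse order, TAACC, were in 25.6% beside 20.9%. With 1 window a gene the shares for CCAAT were 69.3% of 605 and 35.0% of 15206. They were 71.8% and 36.2% among genes with a divergent start within 1 kb, 68.1% and 34.8% among those without, and 69.3% and 38.7% among windows of 50 to 65% GC. Of the ribosome biogenesis and polymerase I genes with a region over the start, IMP4 and RRP9 held the word and POLR1A and NOP16 did not. The word was singled out after its values were seen, neighbouring genes can share a window's bases, and no test was run.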
